A study of Mus musculus with 2 samples.

Results

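Genes of the trypsin, chymotrypsin, elastase and kallikrein proteases and of their Spink inhibitors were examined on arrays of sorted cells labelled ILCreg, for regulatory innate lymphoid cell. Members were the array features with exactly 1 gene symbol in the platform annotation whose symbol names a Prss, Try, Ctrb1, Ctrl, Ctrc, Cela, Klk, Tmprss, St14 or Spink gene. This gave 91 of 61344 features, each for a different gene. They fell into 11 pancreatic digestive proteases, 24 kallikreins, 19 membrane-bound proteases, 34 other Prss proteases and 3 Spink inhibitors. The cells were sorted from the small intestine of C57BL/6 mice aged 8 weeks that carry an IL-10-GFP knockin, a green fluorescent protein reporter of the cytokine interleukin 10. There was 1 group of 2 arrays, replicate 1 and replicate 2, with no other cell population, and no label ties them to different animals or sorting runs. The spread between them may therefore be technical.

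Pancreatic acinar cells store digestive proteases as inactive precursors. In the gut lumen enteropeptidase, a membrane-bound protease of duodenal enterocytes, converts trypsinogen to trypsin, and trypsin then activates chymotrypsinogen, proelastase and further trypsinogen. Kallikreins are secreted relatives encoded in 1 gene cluster, membrane-bound relatives act at epithelial surfaces, and Spink proteins are small inhibitors of trypsin-like enzymes.

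Values are the authors' deposited signals, taken as log2 from their range; the log base is not stated, so any fold holds only if it is 2. A member was called above the threshold if it exceeded, on each array, the 95th percentile of 1680 olfactory, vomeronasal and taste receptor genes, which was 6.74 for replicate 1 and 6.19 for replicate 2. A gene below it cannot be told from such signal and need not be absent. Means are given ± SD over both arrays (n = 2). Probes differ in affinity, so signals do not order different genes by transcript number. With 1 group there is nothing to test against, and p-values are not reported. In these bulk samples, fewer cells of a type and less RNA per cell cannot be told apart. The labelled cell type was checked on T cell and innate lymphoid genes: 9 of 11 measured passed, including the leukocyte antigen gene Ptprc (12.21 ± 0.10) and Il10 (10.82 ± 0.32), and Thy1 and Cd8a did not. The T cell genes Cd3e (9.79 ± 0.16), Cd3g (9.11 ± 0.20) and Cd4 (7.95 ± 0.62) of the same list passed too, although innate lymphoid cells are defined by the lack of a T cell receptor. All 8 stromal, all 19 epithelial and 8 of 9 macrophage genes measured passed as well, as did 6 of 7 plasma cell genes, although the design text states a purity of over 95%. Of 9 skin and glandular epithelium genes 0 passed.

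In all, 18 of 91 members (19.8%) lay above the threshold on both arrays, against 31.7% of 28281 named genes and 38.9% of 16400 protein-coding genes outside the reference. The gap depended on the percentile: at the 99th, 17 of 91 members (18.7%) passed, against 19.8% of all named genes. They were spread unevenly over the groups. Of the digestive proteases 10 of 11 passed, whereas 8 of the other 80 members did. A further 4 members passed on 1 array and 69 on neither, and the values of those 69 ranged from 3.63 to 6.12.

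**Figure D1:**
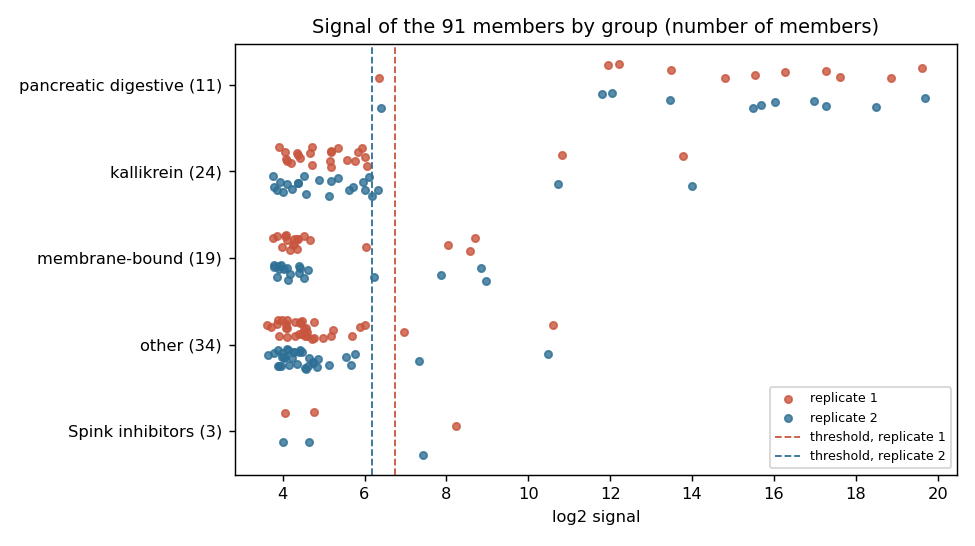
Log2 signal (x axis) of each of the 91 members in both replicates, in rows by group, with dashed lines for the threshold of each array. The digestive proteases lie far to the right, 10 of 11 at 11.8 or higher, while most members of the other groups lie left of both lines.

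The trypsinogen genes gave high signals on both arrays. Try4, one of the trypsinogens of the mouse pancreas, had 18.87 for replicate 1 and 18.49 for replicate 2 (mean 18.68 ± 0.27). Prss2, which encodes anionic trypsinogen, had 17.61 and 17.28 (mean 17.45 ± 0.23), and Try5 had 16.27 and 16.03 (mean 16.15 ± 0.17). Prss1, a further trypsinogen gene, stood at 13.50 and 13.47 (mean 13.48 ± 0.02). Prss3 stood at 11.94 and 11.81 (mean 11.87 ± 0.10). All 5 trypsinogen members thus exceeded the threshold by at least 5.20 in replicate 1 and 5.62 in replicate 2. Mouse trypsinogens are close copies, so the features may share signal, and the values do not show how many of these genes were transcribed.

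The chymotrypsins and elastases were similarly placed, with 1 exception. Ctrb1, encoding chymotrypsinogen B, had 19.62 and 19.68 (mean 19.65), near the highest values of the arrays, 19.80 and 19.86. Its difference equalled that of the highest values, 0.058, within 0.0001, so it is read as set by the ceiling, and its level is only a lower bound. Ctrl, a chymotrypsin-like protease gene, had 17.26 and 16.99 (mean 17.13 ± 0.19). The elastase genes Cela2a (15.55 and 15.69), Cela1 (14.80 and 15.49) and Cela3b (12.21 and 12.04) all passed, with means of 15.62 ± 0.10, 15.14 ± 0.49 and 12.12 ± 0.13. Ctrc, encoding chymotrypsin C, which in humans degrades trypsinogen, had 6.35 and 6.39 and exceeded the threshold only on the array of replicate 2. Ctrb1, Try4, Prss2, Ctrl and Try5 lay above 16, the log2 of the highest reading of a 16-bit scanner, on both arrays. This was 5 of 91 members, against 0.838% of all named genes, and the step that gives such values is not known.

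**Figure D2:**
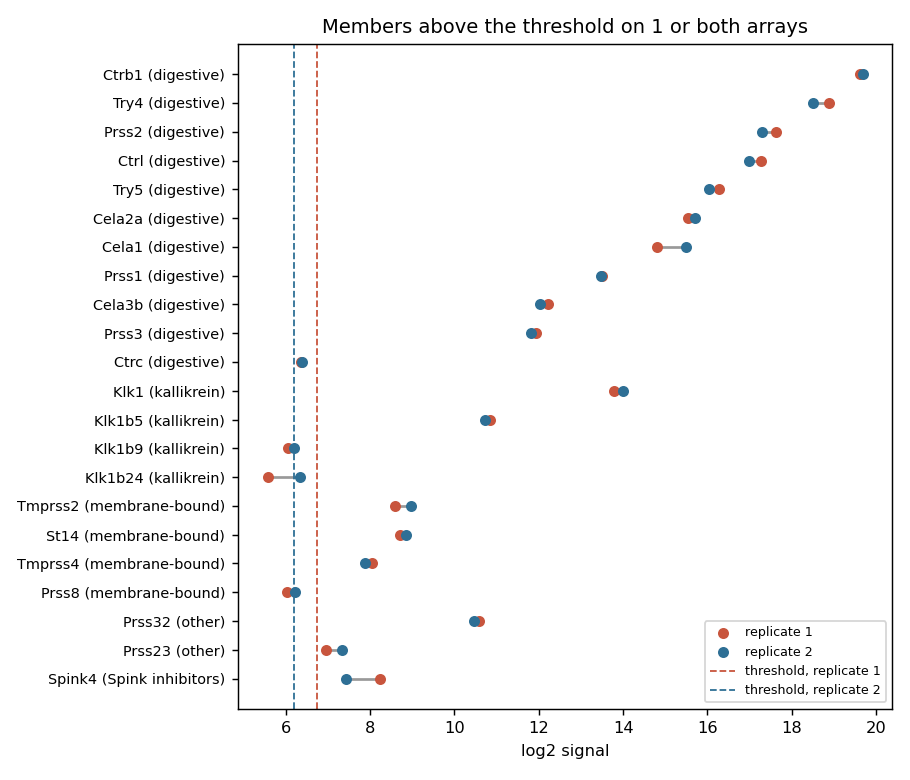
Log2 signal (x axis) of the 22 members above the threshold on 1 or both arrays, a row each, grouped by family, with a point for each array joined by a line and dashed lines for the thresholds. The points of an array pair lie close together for most members, and the gaps are widest for Cela1, Klk1b24 and Spink4.

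Other genes of acinar cells were split, with most secreted products but no transcription factor above the threshold. Of 14 measured acinar genes outside the members 9 passed, with list medians of 11.49 in replicate 1 and 11.47 in replicate 2. The carboxypeptidase gene Cpa1 had 17.76 ± 0.06, Reg1, which encodes a secreted lectin, 17.33 ± 0.42, and the colipase gene Clps 10.22 ± 0.17. The measured transcription factors were all below the threshold on both arrays. Ptf1a, the defining factor of the acinar lineage, had 3.68 and 3.38, its partner Rbpjl 4.41 and 4.23, Bhlha15 3.77 and 3.63, and Nr5a2 6.36 and 5.86. Of the genes that are not transcription factors 9 of 10 passed, the exception being the secreted nuclease gene Dnase1, at 4.86 and 4.65. The intestine also makes some of the listed proteins, among them Reg1 and Zg16. The part of acinar RNA in the protease signal was not tested.

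**Figure D3:**
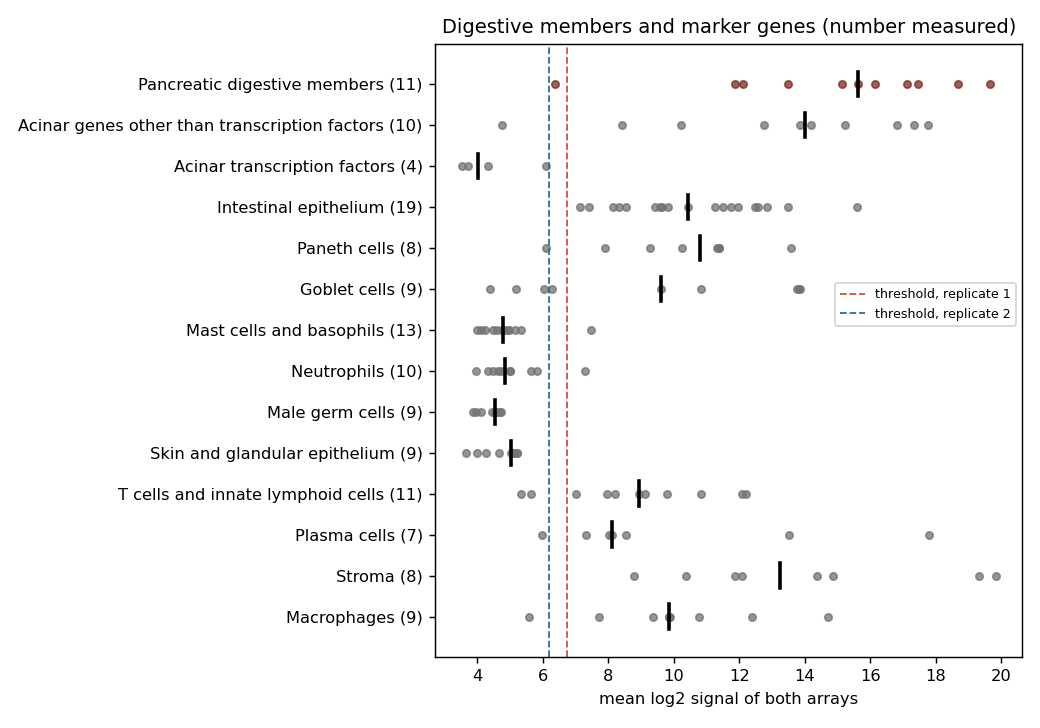
Mean log2 signal of both arrays (x axis) for the 11 digestive members in the top row and for marker genes of other cell types below, a point per gene, black bars for list medians and dashed lines for the thresholds. The acinar genes other than transcription factors had a median of 14.0, while the 4 acinar transcription factors had a median of 4.01 and lay below both lines.

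The upstream windows of trypsinogen, elastase and kallikrein genes are shown as examples of the sequence before genes with high signal; the 5 digestive windows printed are those that hold TATAAA. RefSeq promoter windows (GRCm38.p6, 250 bases before to 50 after the start) were found for 70 of 91 members. The motif TATAAA, on either strand, was in 5 of 9 digestive windows (55.6%), against 15.7% of 27025 genes with a window. CACCTG, the E-box element of the site bound by the acinar factor complex PTF1, was in 8 of 9 (88.9%), against 22.6% of all genes. TTTCCC, the other element of that site, was in 5 of 9 (55.6%), against 27.9%. CACCTG was also in 15 of 23 kallikrein windows (65.2%), where TATAAA was in 1. In local alignments the windows of Klk1 and Klk1b genes were 77.5% to 98.1% identical, and those of trypsinogen genes 61.2% to 78.1%. Windows of such related genes are not independent observations, which limits the comparison with all genes. Of members above the threshold with a window, 12 of 14 held CACCTG and 5 of 14 TATAAA, against 24 of 54 and 3 of 54 of the members above it on neither array. The 9 digestive windows are among these 14 and hold 8 of the 12 with CACCTG and all 5 with TATAAA. These counts therefore largely repeat those of the digestive group, and the motifs were chosen after the values were seen. The motifs do not overlap each other in the sequences shown, and a match is not a bound site. The printed stretches are the 200 bases before the start, 5′ to 3′ along the gene, with TATAAA and CACCTG (or its complement CAGGTG) in capitals.
Try4, chr6:41302072-41302271, plus strand: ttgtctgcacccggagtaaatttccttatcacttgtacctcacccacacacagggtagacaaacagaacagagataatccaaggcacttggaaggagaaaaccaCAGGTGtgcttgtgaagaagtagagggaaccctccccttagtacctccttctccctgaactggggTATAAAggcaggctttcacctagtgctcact
Prss1, chr6:41458730-41458929, plus strand: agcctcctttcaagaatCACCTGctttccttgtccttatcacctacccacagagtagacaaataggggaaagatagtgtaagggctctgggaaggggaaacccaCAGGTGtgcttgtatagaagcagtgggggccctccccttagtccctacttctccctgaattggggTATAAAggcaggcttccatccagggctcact
Prss2, chr6:41521576-41521775, plus strand: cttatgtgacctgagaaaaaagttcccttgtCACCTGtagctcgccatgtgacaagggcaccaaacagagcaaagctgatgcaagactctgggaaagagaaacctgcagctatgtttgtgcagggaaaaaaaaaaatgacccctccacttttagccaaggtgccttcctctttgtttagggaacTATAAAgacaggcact
Prss3, chr6:41377614-41377813, minus strand: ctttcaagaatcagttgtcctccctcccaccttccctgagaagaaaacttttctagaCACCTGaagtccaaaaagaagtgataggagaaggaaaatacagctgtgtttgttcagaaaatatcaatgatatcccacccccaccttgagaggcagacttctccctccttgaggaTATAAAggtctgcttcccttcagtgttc
Cela1, chr15:100687921-100688120, minus strand: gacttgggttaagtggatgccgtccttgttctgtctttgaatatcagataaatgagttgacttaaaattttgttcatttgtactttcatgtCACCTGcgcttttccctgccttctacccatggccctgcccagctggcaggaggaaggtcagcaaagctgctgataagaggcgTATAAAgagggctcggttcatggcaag
Klk1, chr7:44225160-44225359, plus strand: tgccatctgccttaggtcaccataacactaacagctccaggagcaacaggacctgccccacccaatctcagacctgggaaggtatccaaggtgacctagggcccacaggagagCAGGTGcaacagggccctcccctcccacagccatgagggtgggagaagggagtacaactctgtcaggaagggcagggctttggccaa
Klk1b5, chr7:44216274-44216473, plus strand: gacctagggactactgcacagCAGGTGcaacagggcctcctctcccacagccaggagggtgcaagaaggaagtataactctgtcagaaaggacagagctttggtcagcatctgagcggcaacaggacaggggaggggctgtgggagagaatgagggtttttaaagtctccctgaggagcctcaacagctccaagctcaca
In local alignments of the full windows Try4 and Prss1 were identical at 221 of 283 aligned positions (78.1%), and both have TATAAA beginning 31 bases and CAGGTG beginning 96 bases before the start. The 6 pairs among Try4, Prss1, Prss2 and Prss3 ranged from 61.2% to 78.1%. The 10 pairs among elastase and chymotrypsin windows ranged from 54.2% to 72.5%, which overlaps the trypsinogen pairs other than Try4 and Prss1. That overlap rests on shorter alignments. Elastase and chymotrypsin pairs above 61.2% aligned over 40 to 136 positions, and the trypsinogen pairs over 261 to 320. The highest, Cela1 with Cela2a, was 29 of 40. Klk1 and Klk1b5 were identical at 178 of 208 aligned positions (85.6%), and neither stretch holds TATAAA.

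The trypsinogen genes lie within the T cell receptor beta locus on chromosome 6, and the high signals there were limited to trypsinogen members and a few gene models. In the GRCm38.p6 gene order, 33 variable segments separate 2210010C04Rik from Try4, and Prss2 is the last gene before the diversity segment Trbd1. None of the 19 measured variable segments of this stretch passed on both arrays, and their values ranged from 3.10 to 7.43. Trbv3 (7.12 and 5.54) passed only on the array of replicate 1. Trbv16 (5.46 and 6.19) and Trbv20 (6.69 and 7.43) passed only on that of replicate 2. Of the 6 members in this stretch 5 passed, the exception being Prss58 (4.51 and 4.23). Besides these, 4 of 8 other measured genes passed, namely 2210010C04Rik (14.25 and 14.31), Gm5409 (17.88 and 17.90), Gm5771 (13.29 and 13.68) and Gm10334 (11.66 and 11.54). They carry no trypsin symbol in the annotation used and are therefore no members. Whether they are trypsinogen genes was not examined. Gm5409 is annotated as a pseudogene and the others as protein-coding genes. A further feature outside the members, which carries both Gm5409 and Try10, had 11.52 and 11.60. Whether these features share signal with those of the trypsinogen members was not tested.

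Among kallikreins 2 of 24 members passed on both arrays. Klk1, which encodes tissue kallikrein, the enzyme that releases kinins from kininogen, had 13.78 and 13.99 (mean 13.89 ± 0.14). Klk1b5, of the mouse-specific Klk1b expansion, had 10.84 and 10.72 (mean 10.78 ± 0.08). They stand at the same end of the chromosome 7 cluster, with Klk1 last and only Gm10109 (5.72 and 5.56) between them. Klk1b3 and Klk1b4, on the other side of Klk1b5, were not measured. The remaining 22 kallikreins did not pass on both arrays. Klk1b24 (5.57 and 6.33) and Klk1b9 (6.06 and 6.19) exceeded the threshold only on the array of replicate 2. Klk13 (3.90 and 3.77) and Klk14 (4.12 and 3.87) had the lowest means of the family, Klk14 being close to Klk4 (4.05 and 3.95). The Klk1b genes and Klk1 are related in sequence, and the upstream windows aligned for them were 77.5% to 98.1% identical (median 83.6%). Whether the feature of Klk1b5 also reads Klk1 was not tested.

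**Figure D4:**
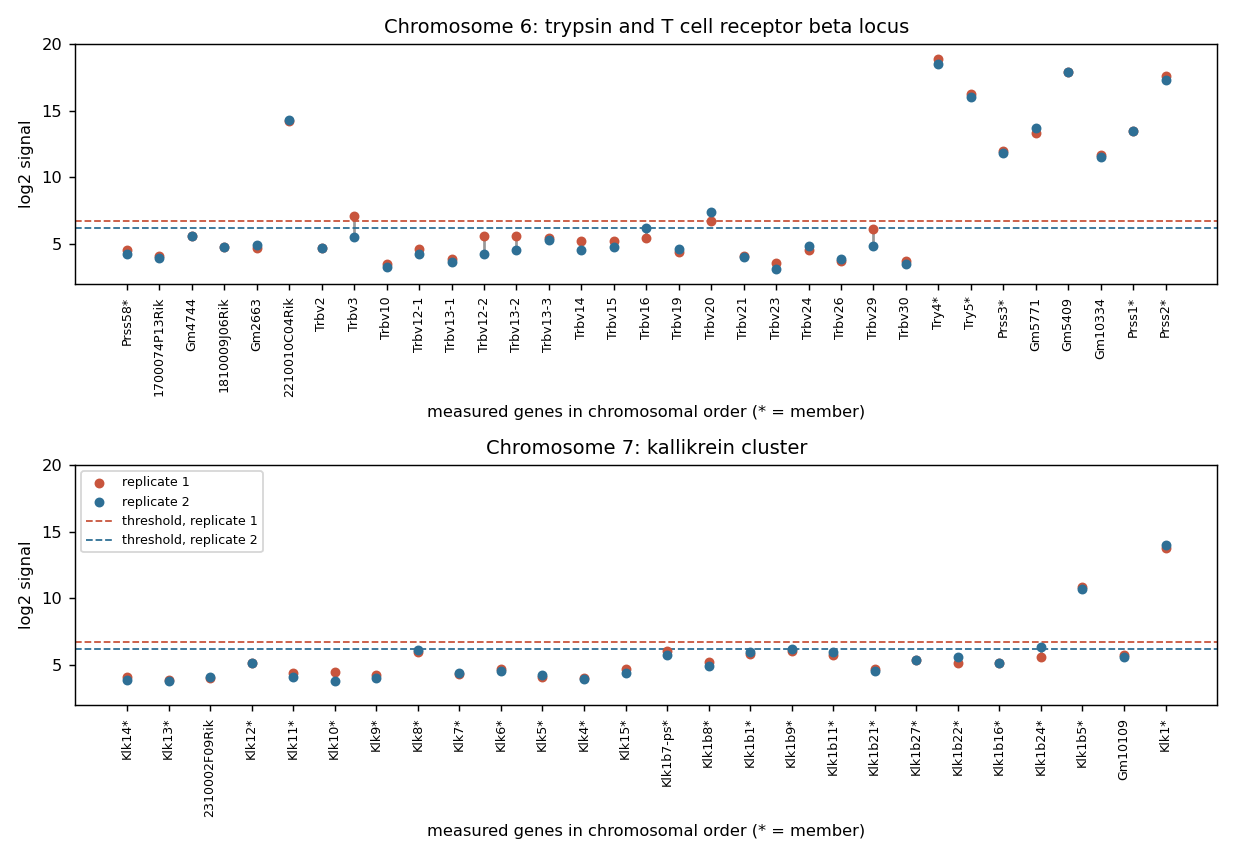
Log2 signal (y axis) of the measured genes in chromosomal order (x axis, asterisks for members) in the trypsin and T cell receptor beta locus above and the kallikrein cluster below, with a point per array and dashed lines for the thresholds. The trypsinogen members at the right of the upper panel lie between 11.8 and 18.9, and in the lower panel Klk1b5 and Klk1 at the right end are the genes above both lines.

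Of the membrane-bound proteases 3 of 19 passed. Tmprss2, a transmembrane protease of epithelial cells that also primes viral fusion proteins, had 8.58 and 8.97 (mean 8.78 ± 0.28). St14, encoding the epithelial protease matriptase, had 8.70 and 8.84 (mean 8.77 ± 0.10), and Tmprss4 had 8.04 and 7.88 (mean 7.96 ± 0.11). Prss8, the lipid-anchored prostasin that acts with matriptase, had 6.04 and 6.22 and passed only on the array of replicate 2. Tmprss15, which encodes enteropeptidase, stood at 4.08 and 3.96, below the threshold on both arrays while its substrates Prss2 and Try4 were above 17. Tmprss13 (3.75 and 3.78) and Tmprss3 (3.86 and 3.78) were lowest, and the 15 members that passed on neither array did not exceed 4.68. All 19 measured genes of the intestinal epithelium passed beside them, with list medians of 10.6 in replicate 1 and 10.2 in replicate 2, and their part in these signals was not tested.

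The 34 other Prss genes were almost all at reference level, and 2 of them passed. Prss32 had 10.59 and 10.47 (mean 10.53 ± 0.08), and Prss23, which encodes a secreted protease, 6.96 and 7.33 (mean 7.14 ± 0.27). Prss23 exceeded the threshold of replicate 1 by 0.21 only and no longer passed at the 99th percentile of the reference. Genes known from immune cells did not pass. Prss16, the thymus-specific serine protease, had 4.40 and 4.34, Prss34, a protease of mouse basophils and mast cells, 4.48 and 4.43, and Prss57, neutrophil serine protease 4, 5.18 and 5.13. Of the marker genes of these cells 1 of 13 for mast cells and basophils (Kit, 7.48 ± 0.06) and 1 of 10 for neutrophils (S100a9, 7.30 ± 0.85) passed. Several genes of this group, among them Prss43, are known from testis, and 0 of 9 male germ cell genes passed. Prss43 stood at 3.87 and 3.78, and Prss56 was lowest at 3.63 and 3.64. The signal nearest to passing in the group was that of Prss30, at 6.01 and 5.76.

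Of the 3 Spink inhibitors measured 1 passed. Spink4, a secreted inhibitor of goblet cells, had 8.25 in replicate 1 and 7.43 in replicate 2 (mean 7.84 ± 0.57). Spink2, an inhibitor known from sperm, had 4.76 and 4.64, and Spink8 averaged 4.02 ± 0.03. Spink1, the pancreatic trypsin inhibitor, was not analysed here. Of 9 measured goblet cell genes 5 passed, with Zg16 (13.84 ± 0.17) and Agr2 (13.83 ± 0.29) highest, and the list medians were 9.43 and 9.75. Of 8 Paneth cell genes 7 passed, with medians of 10.8 and 10.4.

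Among inhibitors and targets of these proteases outside the Spink family some genes passed and others did not. For comparison, 31.7% of all named genes passed, and 38.9% of protein-coding genes outside the reference. Nothing is read from the counts of the lists below. Of 29 measured Kunitz, serpin and related inhibitor genes 11 passed (median 5.30), led by the C1 inhibitor gene Serping1 (14.18 ± 0.04) and Serpina3n (12.69 ± 0.10). Spint1 and Spint2, which encode the membrane-bound inhibitors of matriptase, had 9.35 ± 0.31 and 6.99 ± 0.10 and passed on both arrays, as did St14. Spint2 exceeded the threshold of replicate 1 by 0.18 only. Serpina5 was lowest at 3.77 ± 0.13. Of 23 receptors and substrates 9 passed, with the urokinase receptor gene Plaur at 12.07 ± 0.42 and Epcam, a matriptase substrate, at 11.97 ± 0.16, against 3.73 ± 0.07 for the sodium channel subunit gene Scnn1g. Of 34 other proteases of the trypsin fold 9 passed, the highest being the granzyme gene Gzmb (13.39 ± 0.02) and the complement protease gene C1ra (12.43 ± 0.47). Elane (3.94 ± 0.16) and Mcpt1 (5.14 ± 0.13), encoding neutrophil elastase and a mucosal mast cell protease, did not pass, and prothrombin (F2, 3.83 ± 0.01) was lowest.

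Differences between the arrays were taken as replicate 2 minus replicate 1 after subtracting the median over all named genes, -0.05. Of the 18 members above the threshold 0 differed by more than 2-fold, against 2.18% of 8972 named genes above the threshold that did so toward replicate 2 and 1.97% toward replicate 1. With so few members nothing is read from this count. The median of the centred differences was -0.07 for these members, against 0.05 for all genes above the threshold. The sign was positive, toward replicate 2, for 8 of the 18 members and for 55.3% of the 8972 genes. Among the 18 members the largest differences were those of Spink4 (-0.76) and Cela1 (0.74), in opposite directions. Cela1 stood apart from the other 9 digestive proteases above the threshold, which ranged from -0.33 for Try4 to 0.20 for Cela2a, 0.11 for Ctrb1 being set by the ceiling. Tmprss2 (0.44) and Prss23 (0.42) were higher on the array of replicate 2. Among members not above the threshold on both arrays the differences reached 0.81 for Klk1b24, -0.59 for Klk10 and -0.58 for Prss47, against -0.20 for Tmprss7. Each such value compares 2 single arrays and was not replicated. On the same scale the Paneth cell list had a median of -0.51 and the epithelial list -0.10. The goblet cell list had 0.33 and the acinar list 0.11. The acinar list joins 4 transcription factors below the threshold (median -0.20, all negative) to 10 other genes (0.19, 8 positive). The digestive proteases above the threshold had a median of -0.11, 4 of 10 being positive. For the T cell and innate lymphoid list the median was 0.27, and 9 of its 11 differences were positive. The neutrophil list had -0.35, but 9 of its 10 genes passed on neither array, and the reference genes had a median of -0.11. The plasma cell list had 0.43, macrophages 0.39, and stroma 0.29 with 8 of 8 genes higher on the array of replicate 2. Among these stromal genes Dcn and Dpt, 0.11 each, were set by the ceiling as Ctrb1 was. The others ranged from 0.05 for Lum to 1.74 for Col1a1, 1.89 for Col1a2 and 2.08 for Col3a1. The part of these shifts in the members' differences was not tested.

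**Figure D5:**
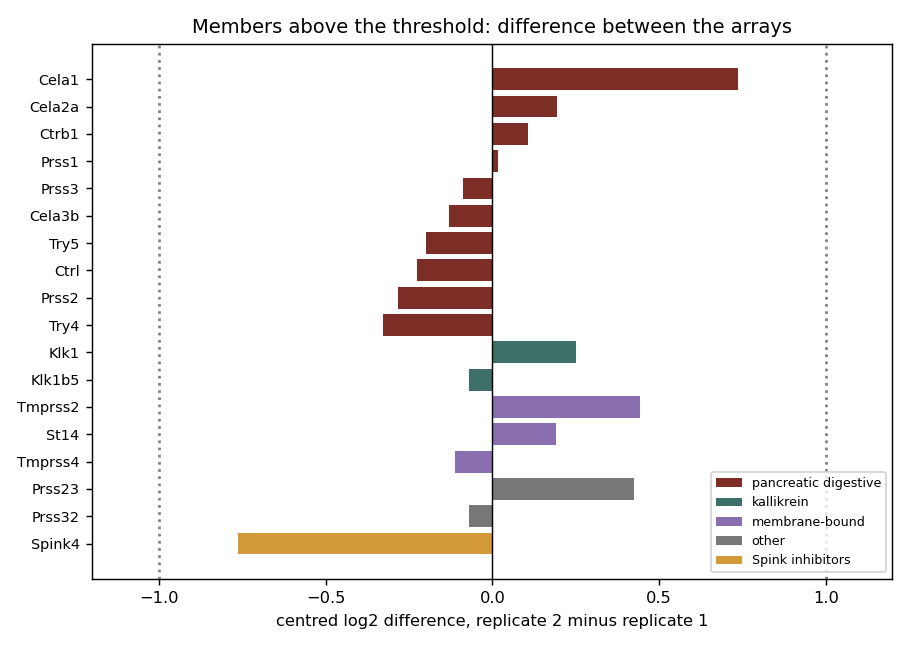
Centred log2 difference, replicate 2 minus replicate 1 (x axis), of the 18 members above the threshold on both arrays, a bar per gene coloured by group, with dotted lines at a 2-fold difference. All bars stay within the dotted lines, and the longest are Spink4 at -0.76 and Cela1 at 0.74.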

How the data were processed

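Total RNA of sorted cells was amplified and hybridised to Affymetrix whole-transcript arrays, per the labels' protocols. The deposited table holds the authors' log2 signal, 1 value per feature and array, from 2.10 to 19.86; the log base was inferred from the range. The submitters' processing notes name MAS5, with no version or role, and the sources used here do not give summarization, scaling or genome build. Array medians were 5.02 and 4.90. The number of arrays limits the precision.

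Symbols came from the platform annotation: 28573 features had 1 symbol, 2014 several and 30757 none. Symbols of other genes were updated through Entrez identifiers with the GRCm38.p6 table, and the feature with the highest mean was used per gene, giving 28281 genes. Of the reference genes 41 lay above the threshold on both arrays. Calls, differences and lists were computed with Python 3.11.15, numpy 2.4.6 and pandas 2.3.3, alignments with biopython 1.88, and the calls were tested on simulated data. Alternatives covered the reference, its percentile, the choice of feature, normalization, centring and each array left out. Members and lists were chosen with earlier results of these data known, and the motifs and the gene stretches on chromosomes 6 and 7 after the values were seen. Named members were those above the threshold on both arrays, the 3 highest, the 2 lowest and the most different of each group, and a fixed set of well-known genes; in other lists, the 2 highest, the lowest and a fixed set. Klk1b9, Gm10109 and some other genes were named after their values were seen.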

Additional observations from a re-analysis of the deposited data

Results flagged for a closer look

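A feature that carries the symbols Try10 and Gm5409 matches the family through the first, but was left out because it has several symbols. Its signal was 11.52 and 11.60 (mean 11.56 ± 0.06), above the threshold on both arrays, and it drew attention as signal in data left unused. A feature labelled Gm13011 on the platform, now Cela3a by its Entrez identifier, had 8.50 and 8.14 (mean 8.32 ± 0.25), also above the threshold on both arrays; it was left out because membership follows the platform symbol. With 2 arrays no array could be singled out as far from the others.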

How the results depend on the processing

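The count of 18 members above the threshold was 19 at the 90th percentile of the reference (20.9%, against 39.0% of all named genes), 17 at the 99th (18.7%, against 19.8%) and 19 with updated symbols. It stayed at 18 with keratin-associated protein and Rhox genes as reference (against 34.8% of all named genes), and after quantile normalization. Using the median over features or every feature gave 18 by construction, since each member has 1 feature. Without replicate 1 it was 22 (24.2%, against 38.6% of all named genes), and without replicate 2 it was 18 (19.8%, against 32.3%). With 1 array left out, counts ranged from 2 to 4 for kallikreins, 10 to 11 for digestive and 3 to 4 for membrane-bound proteases, and stayed at 2 for other Prss genes and 1 for Spink genes. At the 99th percentile 1 of the other Prss genes passed, since Prss23 no longer did. Without the digestive proteases, a setting chosen after seeing the data, the count was 8 of 80 by construction, and without Ctrb1 it was 17. The median difference of members above the threshold stayed between -0.12 and -0.07 under other centring, quantile normalization and without Ctrb1, and was 0.06 without the digestive proteases. No difference can be had with 1 array left out. No paired analysis was possible because there is 1 group.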
